A study of Rattus norvegicus with 24 samples.

Results

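The collagen genes on the array and the collagen chaperone Serpinh1 were followed through left ventricles of rats on a high salt diet, on a treadmill program or on neither. Every probe set that the platform annotation assigned to Col1a1, Col1a2, Col3a1, Col4a3, Col4a5, Col5a1, Col5a2, Col15a1 or Serpinh1 was taken, which gave 13 probe sets for 9 genes, out of 8799 probe sets and 4737 genes in all. A probe set is a group of short probes against one transcript. Col1a1 had 4 probe sets, Col3a1 had 2 and the other 7 genes had 1 each, and all 13 passed the filter on dim probe sets.

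The rats were of the Dahl salt-sensitive strain, an inbred line that becomes hypertensive on a salty diet. They arrived at 5 weeks of age and were treated from 6 weeks of age. High salt rats ate chow with 6% NaCl. The exercise program was 6 weeks of daily treadmill runs with a build-up of 3 weeks, and it ended at 16 m/min up a slope of 5 degrees and 90 minutes per day. Whether the exercise rats sampled at 3 weeks had reached this load is not given in the labels. Controls were sedentary rats of the same age on normal chow. Samples were taken at 3, 6 and 15 weeks, and the starting point of this count is not given in the labels. There were 3 high salt arrays at 3, 6 and 15 weeks, 3 exercise arrays at 6 weeks, and 3 control arrays at 6 and at 15 weeks. At 3 weeks 1 exercise and 1 control array carried a single label, and a further 2 arrays had been deposited under both of these labels. These 2 arrays are called double-labelled here and were used as non-salt arrays at 3 weeks and nowhere else. Whether arrays stand for separate animals is not stated, and every p-value reflects the spread between arrays, which may be technical.

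Collagens are secreted proteins whose chains wind around each other in threes of a kind set by the collagen type. Types I, III and V are fibrillar and make up most of the scaffold between heart muscle cells, where they are laid down mainly by fibroblasts, whereas type IV chains form the sheet of basement membranes. Serpinh1, also called Hsp47, is a resident chaperone of the endoplasmic reticulum that binds the folded procollagen helix and is needed for its secretion. Accumulation of fibrillar collagen is a known feature of the hypertensive heart.

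RefSeq promoter sequences on the GRCr8 build were at hand for 7 of the 9 genes, not including Col1a1 and Col3a1. They are shown for Col1a2 and Serpinh1, whose transcripts were low together, and for Col5a1, which shares a motif with Serpinh1. Capitals mark CCAAT (read as ATTGG on the other strand) or TTCNNGAA, the inverted repeat found in heat shock elements, both searched on both strands in the 250 bases before the annotated start.
Col1a2, 250 bases before the start, chr4:33518307-33518556 (plus strand): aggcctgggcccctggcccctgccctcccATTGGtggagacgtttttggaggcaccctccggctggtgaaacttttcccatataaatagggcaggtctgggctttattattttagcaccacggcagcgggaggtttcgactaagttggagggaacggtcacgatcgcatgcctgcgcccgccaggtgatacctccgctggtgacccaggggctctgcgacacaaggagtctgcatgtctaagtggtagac
Serpinh1, 30 bases around the motif, chr1:163062993-163063022 (minus strand): cgtttccaactTTCCAGAAgtttcttagga
Col5a1, 30 bases around the motif, chr3:31606711-31606740 (plus strand): cctgccgcctcTTCCAGAAcacccaccgcc
CCAAT occurred in Col1a2 alone among the 7 promoters, beginning 221 bases before the start on the reverse strand, and in 34% of 33469 rat promoters of this length. TTCNNGAA began 35 bases before the start in Serpinh1 and 158 bases before it in Col5a1, and 7.48% of the rat promoters held it. The TATA motif TATAAA lay 170 bases before the start in Col1a2 and occurred in 12.9% of promoters; it does not overlap the other motifs. A match describes these letters and is not evidence of a bound site.

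The tissue labels were checked against marker genes before the results. Most ventricular muscle markers were bright on all 20 arrays of the fit, with Myl2, the ventricular myosin light chain, averaging 38879. Ryr2 averaged 595 (143 to 1422.5), and Ttn averaged 34.1, too dim to pass the filter. The cartilage and valve collagen Col2a1 averaged 16.1. The atrial light chains Myl7 and Myl4 averaged 307 and 101, while Nppa, a peptide of atrial muscle and of strained ventricle, averaged 8915. The 6-week controls stood apart in their GAPDH 3' to 5' ratio, the intensity of a probe set at the 3' end of the transcript over one at its 5' end, which rises with RNA breakdown. Controls of 6 weeks read 1.58, 2.48 and 3.99 and controls of 15 weeks 1.09, 1.52 and 1.58, whereas it lay between 0.989 and 1.18 on the 16 other distinct arrays. The same ratio for beta-actin was 1.98 to 3.29 in controls of 6 weeks. At 15 weeks it was 1.14 to 1.56 in controls and 1.32 to 1.68 in high salt, with overlap. For hexokinase it was 3.00 to 11.1 in controls of 6 weeks. At 15 weeks it was 2.02 to 3.02 in controls and 1.80 to 2.29 in high salt, again with overlap.

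At 15 weeks Col1a1, Col1a2, Col3a1, Col15a1 and Serpinh1 were far dimmer in high salt ventricles than in controls. A total of 10 of the 13 probe sets fell and 0 rose, at an adjusted p under 0.05 in limma's moderated test over 6555 probe sets, while 3.92% of all tested probe sets fell and 3.28% rose. The probe sets that fell belonged to 6 of the 9 genes, Col1a1, Col1a2, Col3a1, Col5a1, Col15a1 and Serpinh1. The median log2 difference over the 13 was -1.77, against -0.04 over all tested probe sets. The members were chosen with earlier results of these data known, so these shares describe the set and do not test it. The 4 other tested collagens had a median of 0.15, with 0 called. High salt and control arrays did not overlap in 11 of the 13, where 12.5% of all tested probe sets lay lower in high salt with no overlap. Tissue was measured in bulk, so fewer collagen-making cells and less RNA per cell cannot be told apart.

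**Figure D1:**
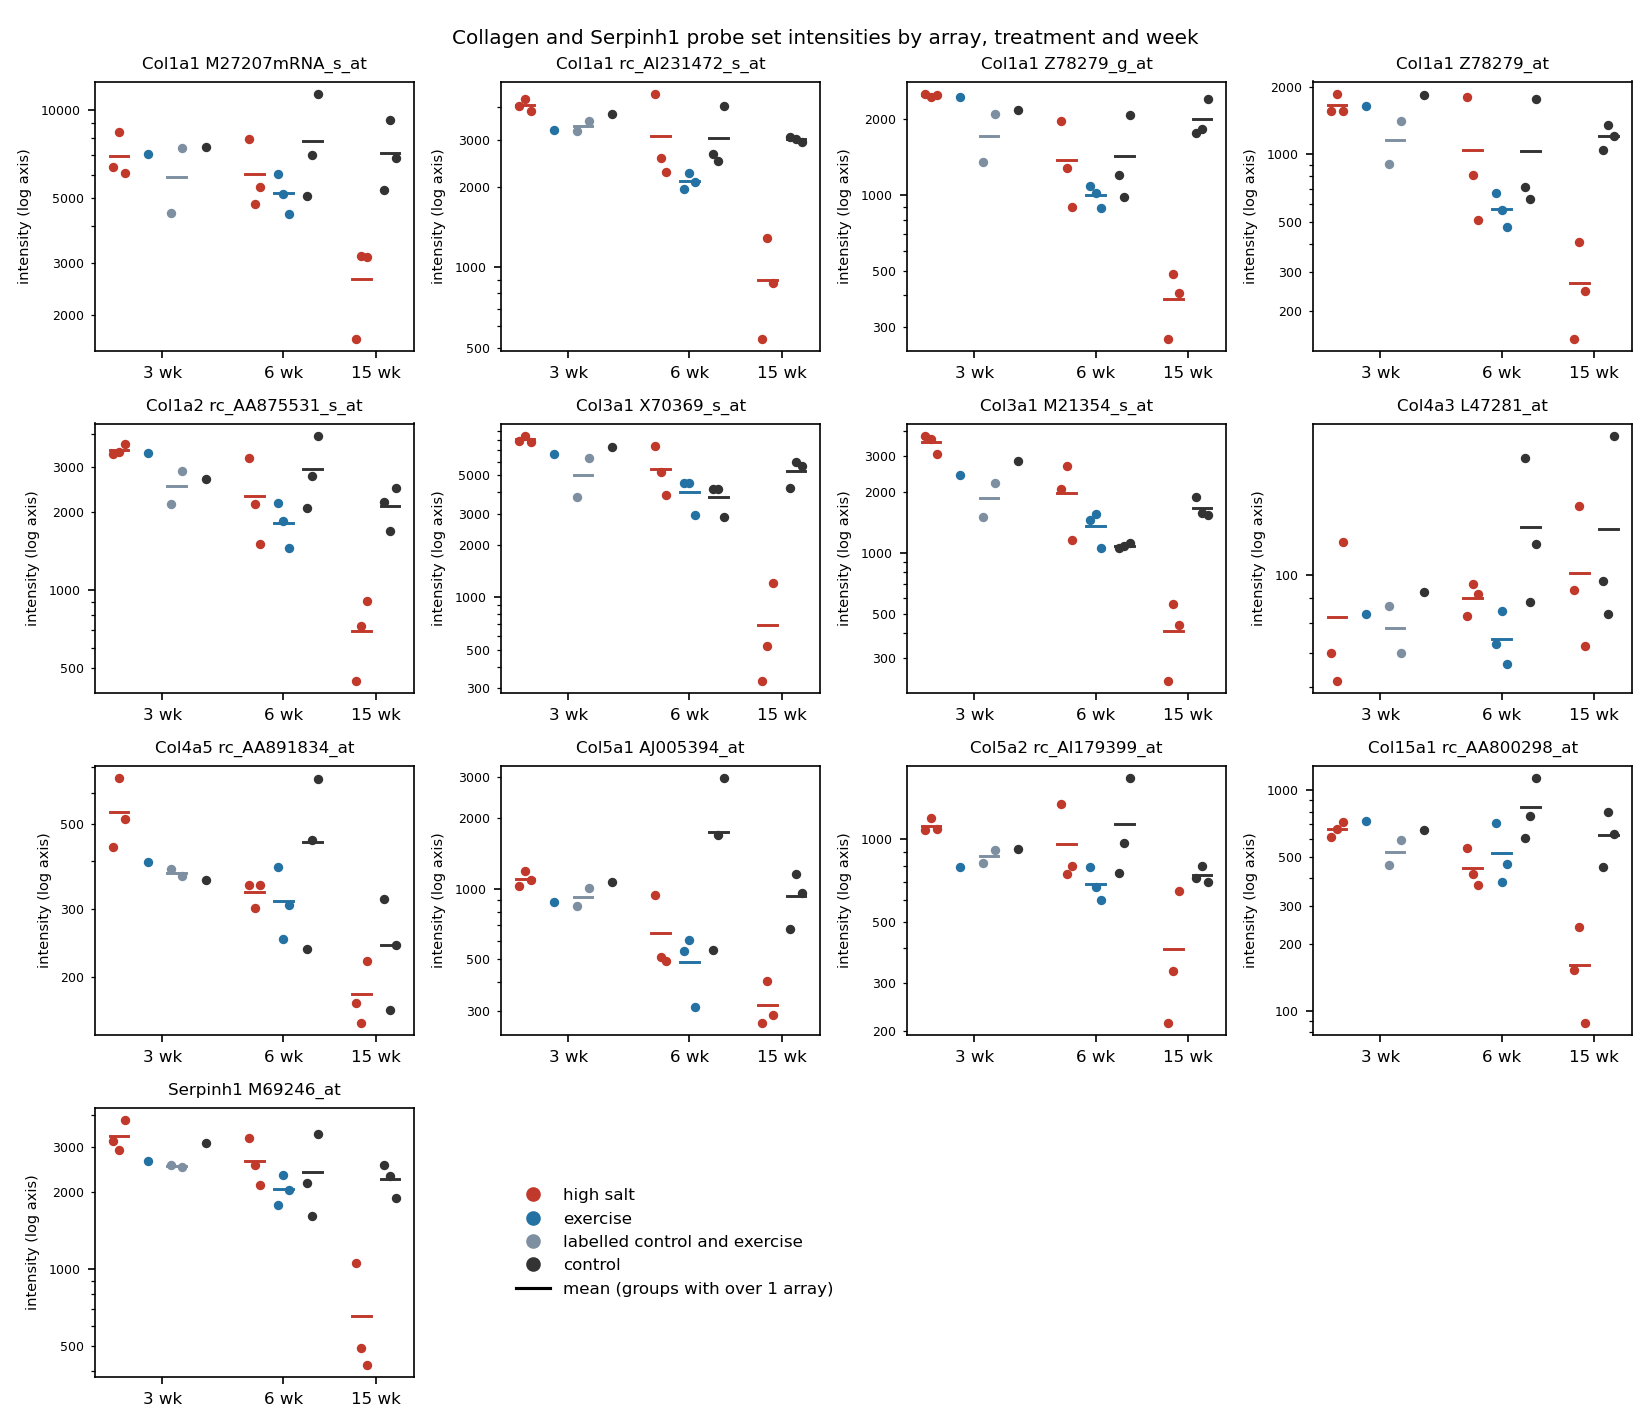
Deposited intensity (log axis) of each of the 13 probe sets on every distinct array, by week, with high salt left, then exercise, double-labelled and control arrays; points are arrays and bars are arithmetic means of groups with over 1 array. For Col3a1, Col1a1, Col1a2, Col15a1 and Serpinh1 the 3 high salt arrays of 15 weeks lie below the arrays of the same week's controls, while Col4a3 and Col4a5 overlap.

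Type III collagen, a homotrimer of Col3a1 chains that is abundant in distensible tissue, held the strongest fall among the members. Its probe set X70369_s_at read 329.8, 526.7 and 1209.8 in high salt ventricles at 15 weeks, against 4221.8, 5936.4 and 5632.8 in controls of that week. Even the highest high salt array lay well under the lowest control. The log2 difference was -3.04 ± 0.32 (SE; limma adjusted p = 7.16e-06), an 8.20-fold lower value, and it was the 2nd strongest fall of all 6555 probe sets. The other Col3a1 probe set, M21354_s_at, read 231.3, 556.0 and 439.1 in high salt ventricles, against 1897.9, 1574.4 and 1536.4 in controls. It too separated the groups, with a log2 difference of -2.0 ± 0.28 (limma adjusted p = 0.00017), 3.99-fold lower, at rank 10 by size of fall. Within the high salt group the array numbered 1 was the lowest in both probe sets, while a different array was the highest in each.

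Type I collagen, the stiff fibril former of the heart, is built of Col1a1 and Col1a2 chains. For Col1a1, Z78279_g_at read 268.2, 486.4 and 408.2 in high salt ventricles at 15 weeks, against 1772.5, 1829.4 and 2422.3 in controls. The groups lay far apart, at a log2 difference of -2.28 ± 0.27 (limma adjusted p = 3.82e-05), 4.86-fold lower and rank 6 by fall. Z78279_at read 150.6, 406.5 and 247.1 in high salt ventricles, against 1049.9, 1352.6 and 1210.2 in controls, a difference of -2.09 ± 0.38 (limma adjusted p = 0.00179). These 2 probe sets carry the same transcript accession in their names and are not independent readings of it. For rc_AI231472_s_at the high salt arrays read 537.7, 1290.8 and 870.7, against 3080.8, 3018.7 and 2957.3 in controls, and the difference was -1.78 ± 0.26 (limma adjusted p = 0.000325). M27207mRNA_s_at had the smallest difference of the 4, at 1648.2, 3165.2 and 3130.3 in high salt ventricles against 5317.9, 9196.1 and 6821.3 in controls (-1.44 ± 0.29, limma adjusted p = 0.00418). In all 4 the array numbered 1 was the lowest of the high salt arrays.

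Col1a2, the partner chain of type I, read 446.4, 728.0 and 908.5 in high salt ventricles at 15 weeks, against 2185.4, 1687.6 and 2484.3 in controls. No high salt array reached the lowest control, and the log2 difference was -1.59 ± 0.28 (limma adjusted p = 0.00136), 3.01-fold lower. Its 95% interval reached from -2.18 to -1.01. The 4 Col1a1 differences of -2.28 to -1.44 lay around this value.

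Type V chains copolymerize with type I and help to start its fibrils. Col5a1 read 267.1, 402.6 and 290.1 in high salt ventricles at 15 weeks, against 676.8, 1151.3 and 958.2 in controls, with no overlap. Its log2 difference was -1.42 ± 0.41 (limma adjusted p = 0.0381), and the call was lost without control array 2 or 3 (adjusted p = 0.166 and 0.109), without high salt array 1 or 3 (0.123 and 0.109), with no filter (0.0623) and with quantile normalization (0.0523). Col5a2 read 213.7, 330.3 and 650.3 in high salt ventricles, against 721.6, 796.9 and 698.0 in controls. The third high salt array lay just under the lowest control, and the difference of -0.95 ± 0.31 did not pass (limma adjusted p = 0.0677); without that array it was -1.34 (adjusted p = 0.0104).

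Col15a1 codes for a collagen of the basement membrane zone around muscle cells and capillaries that links it to the fibrillar matrix. It read 153.3, 240.0 and 87.7 in high salt ventricles at 15 weeks, against 449.3, 798.1 and 634.5 in controls. The groups did not overlap, and the log2 difference was -1.77 ± 0.29 (limma adjusted p = 0.000682), 3.42-fold lower. The type IV chains Col4a3 and Col4a5, which join in the basement membrane network best known from the kidney filter, did not pass the test. Col4a3 read 93.1, 137.0 and 72.1 in high salt ventricles, against 97.2, 83.5 and 188.3 in controls, a difference of -0.18 with a 95% interval from -0.75 to 0.38 (limma adjusted p = 0.798). Col4a5 read 170.6, 151.5 and 219.2 in high salt ventricles, against 318.7, 164.1 and 242.1 in controls (-0.33, 95% interval -0.92 to 0.26, limma adjusted p = 0.6). High salt and control arrays overlapped for each chain, and these intervals do not reach the falls of Col3a1 or Col1a1. Col4a3 was among the dimmer tested probe sets, where the added constant of 40 shrinks differences.

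Serpinh1, the chaperone, fell as well. Its probe set M69246_at read 1057.4, 494.6 and 422.3 in high salt ventricles at 15 weeks, against 2562.3, 2319.3 and 1895.9 in controls. The groups were well apart, with a log2 difference of -1.82 ± 0.28 (limma adjusted p = 0.000484), 3.53-fold lower and rank 18 by fall. Here the high salt array numbered 1 was the highest of its group, the reverse of its place in Col1a1, Col1a2 and Col3a1.

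**Figure D2:**
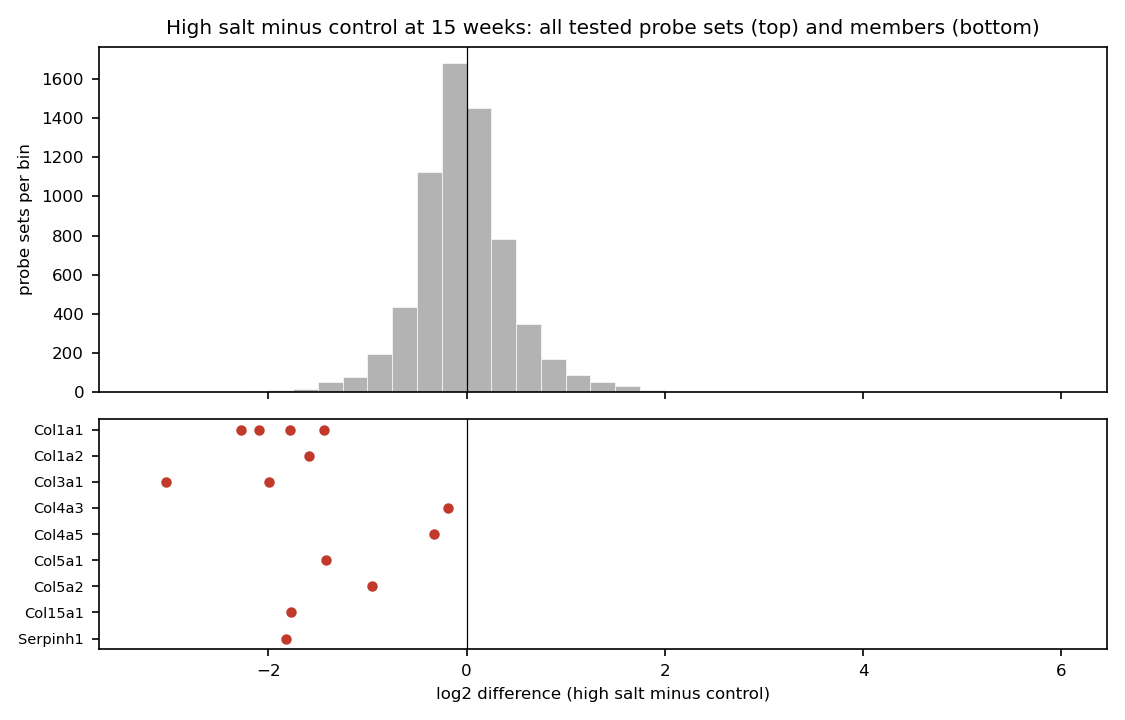
Top, number of tested probe sets in each bin of the log2 difference at 15 weeks, high salt minus control; bottom, the member probe sets by gene on the same axis, 1 point each. The bulk of the array lies around 0 (median -0.04), whereas the points of Col1a1, Col1a2, Col3a1, Col15a1 and Serpinh1 lie between -3.04 and -1.44.

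When the fit held the GAPDH ratio as a covariate, 10 of the 13 probe sets fell at 15 weeks, the same number as without it. Of all 6555 tested probe sets 214 fell and 190 rose in that fit. With the 15-week controls numbered 2 and 3 left out, whose ratios were 1.52 and 1.58, the comparison rested on 1 control array and 5 probe sets passed, chosen after these ratios were seen. These were both Col3a1 probe sets (X70369_s_at -2.74, M21354_s_at -2.18), Col1a1 Z78279_g_at (-2.12) and rc_AI231472_s_at (-1.81), and Serpinh1 (-2.01).

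In high salt at 6 weeks 0 of the 13 probe sets passed the test against controls, in a comparison where 14.4% of all tested probe sets did. At an unadjusted p under 0.05 there were 3, Col3a1 M21354_s_at above controls and Col5a1 and Col15a1 below them, where 29.3% of all tested probe sets had such a p, so the members were not called more often than the array. M21354_s_at read 2060.7, 2702.9 and 1152.8 in high salt ventricles, against 1057.9, 1083.2 and 1112.2 in controls. The groups did not overlap, though the third high salt array came close, and the log2 difference was 0.76 ± 0.28 (limma adjusted p = 0.0695); without that array it was 1.09 and passed (adjusted p = 0.0187). X70369_s_at read 7349.3, 5196.9 and 3872.2 in high salt ventricles, against 4165.5, 4174.9 and 2892.8 in controls, with overlap (0.51 ± 0.32, limma adjusted p = 0.305). Measured against the controls of 3 and 15 weeks in place of those of 6 weeks, the 2 Col3a1 differences were -0.22 and -0.22. Once the GAPDH ratio entered the fit they were 0.36 for X70369_s_at and 0.73 for M21354_s_at, and neither passed (limma adjusted p = 0.892 and 0.679).

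Serpinh1 at 6 weeks read 3263.7, 2544.6 and 2139.6 in high salt ventricles, against 2171.5, 1615.2 and 3378.8 in controls, and the groups overlapped (0.19 ± 0.28, 95% interval -0.40 to 0.78, limma adjusted p = 0.704). It was 0.59 with the GAPDH covariate and -0.02 against the controls of 3 and 15 weeks. The 4 Col1a1 differences lay between -0.32 and -0.01 and none passed. They turned to 0.54 to 1.13 with the covariate and were -0.68 to -0.18 against the controls of the other weeks, again with no call, so their direction is not settled. Col15a1 read 546.9, 417.5 and 373.3 in high salt ventricles, against 606.9, 764.8 and 1141.0 in controls (-0.82 ± 0.29, limma adjusted p = 0.0618). The groups did not overlap, and the difference passed under 7 of 19 alternatives, with array weights for one (-0.76, adjusted p = 0.0176), but was 0.02 with the GAPDH covariate (adjusted p = 0.994) and -0.49 when the 3-week and 15-week controls stood in (adjusted p = 0.674). Col5a1 read 941.4, 510.3 and 493.6 in high salt ventricles, against 546.9, 1698.1 and 2978.0 in controls (-1.14 ± 0.41, limma adjusted p = 0.0643). The Col5a1 values of the 3 controls stood in the same order as their GAPDH ratios of 1.58, 2.48 and 3.99. So did those of Col1a1 M27207mRNA_s_at, Col1a2, Col3a1 M21354_s_at, Col4a5, Col5a2 and Col15a1. Those of Col1a1 rc_AI231472_s_at, Z78279_g_at and Z78279_at, Col3a1 X70369_s_at, Col4a3 and Serpinh1 did not. This order was not tested and was not counted over all tested probe sets. The Col5a1 difference was 0.90 once the ratio entered the fit (adjusted p = 0.494), while it passed under 6 of 19 alternatives. With the covariate 12 of the 13 probe sets were above 0, against 3 without it. In the fit without the covariate 62.7% of all tested probe sets were below 0. Their median was -0.15 without the covariate and -0.05 with it, and their share above 0 with it was not counted. The part of RNA breakdown in these differences was not tested further.

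In exercise at 6 weeks 1 of the 13 probe sets, that of Col5a1, fell against controls and 0 rose, where 3.36% of all tested probe sets fell and 4.47% rose. It read 542.5, 607.4 and 313.8 in exercised ventricles, against 546.9, 1698.1 and 2978.0 in controls, and the groups overlapped. The log2 difference was -1.51 ± 0.41 (limma adjusted p = 0.0258), but it turned to 0.66 (adjusted p = 0.785) when the fit held the GAPDH ratio. Against the controls of 3 and 15 weeks it was -1.0 (adjusted p = 0.699), without control array 3 it was -0.98 (adjusted p = 0.17), without control array 2 it was -1.38 (adjusted p = 0.105) and without exercise array 3 it was -1.24 (adjusted p = 0.123). Of the other 12, 10 were below controls, where 61.8% of all tested probe sets were lower. The 2 Col3a1 probe sets were above controls, by 0.09 and 0.29. The 4 Col1a1 differences ran from -0.68 to -0.43 and that of Serpinh1 was -0.16 (95% interval -0.75 to 0.43). With the GAPDH covariate the Col1a1 differences turned to 0.08 to 0.67 and that of Serpinh1 to 0.27, and 0 of the 13 passed by limma. Against the controls of 3 and 15 weeks Col1a1 was at -1.33 to -0.48, Serpinh1 at -0.37 and Col3a1 at -0.64 and -0.69, and again 0 passed.

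**Figure D3:**
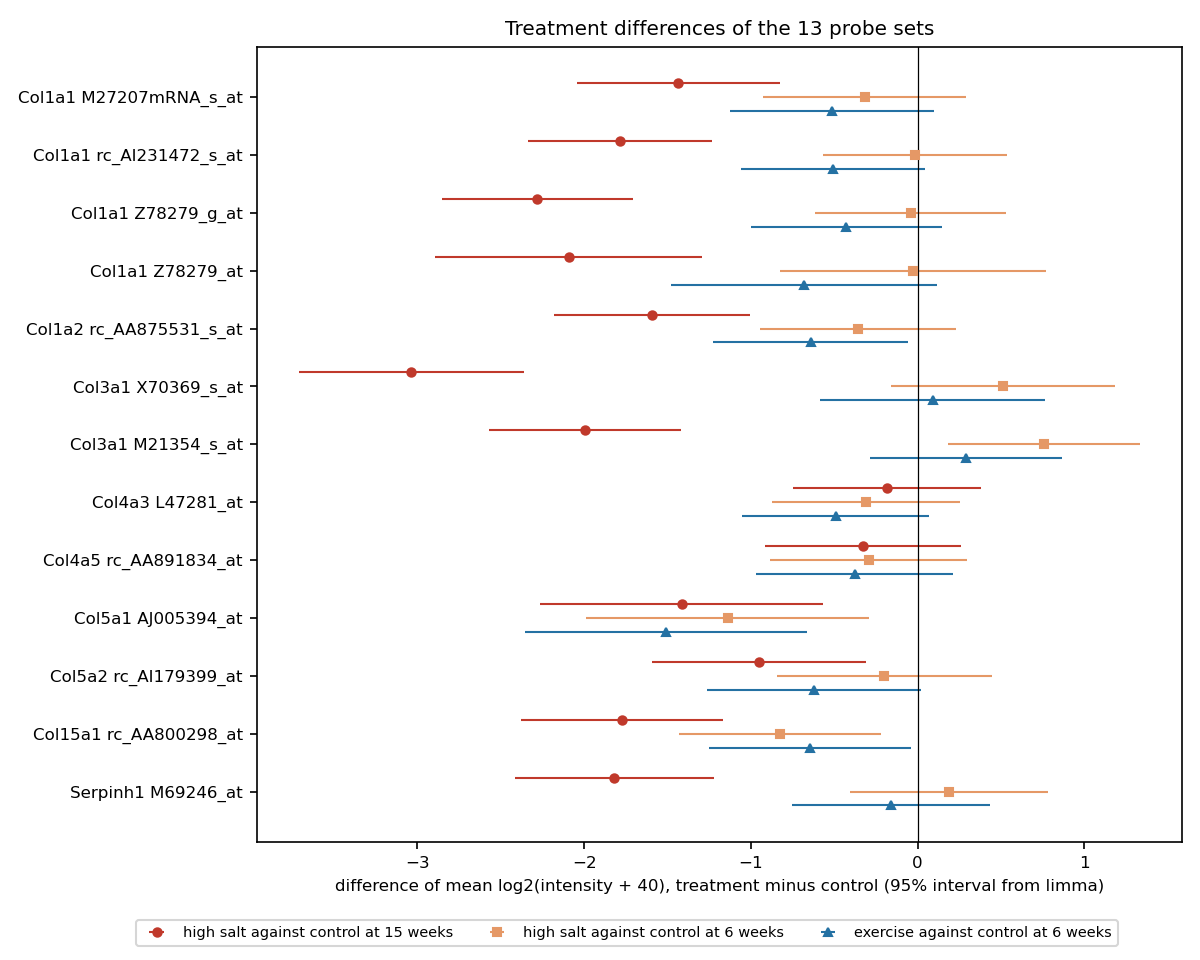
Difference of mean log2(intensity + 40) for the 13 probe sets, with 95% intervals from limma: high salt minus control at 15 weeks, high salt minus control at 6 weeks, and exercise minus control at 6 weeks. The 15-week intervals of 11 probe sets, Col4a3 and Col4a5 excepted, lie below 0. For high salt at 6 weeks the Col3a1 points lie at 0.51 and 0.76, neither past the threshold, and the interval of the first includes 0.

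High salt and exercise were also set against each other at 6 weeks, a comparison that leaves out the 6-week controls as a reference. None of the 13 probe sets passed by limma, and 0 did so at an unadjusted p under 0.05, while 0.0153% of all tested probe sets passed and 7.05% had an unadjusted p under 0.05. Of the 13, 12 were higher in high salt, with a median of 0.37 against -0.02 over all tested probe sets, of which 53.9% were lower. For Col1a1 rc_AI231472_s_at the high salt arrays read 4476.4, 2564.8 and 2276.8, against 1967.9, 2250.1 and 2092.4 on exercise arrays. That was the sole probe set of the 13 with no overlap (0.49 ± 0.26, limma adjusted p = 0.737), where 5.46% of all tested probe sets lay higher with no overlap.

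At 3 weeks, 3 high salt arrays were compared with 4 non-salt arrays, the control, the exercise and the 2 double-labelled ones. None of the 13 probe sets passed the test by limma, 1 had an unadjusted p under 0.05, and of all tested probe sets 0.122% passed and 7.52% had an unadjusted p under 0.05. In high salt 12 of the 13 were higher, with a median of 0.28 against -0.05 over all tested probe sets, of which 58.5% were lower. There was no overlap in 6, all higher in high salt, where 6.18% of all tested probe sets lay higher with no overlap. The 13 hold 4 probe sets of Col1a1 and 2 of Col3a1, so they are not separate readings. The largest difference was that of Col3a1 M21354_s_at, which read 3799.7, 3671.3 and 3087.0 in high salt ventricles, against 2851.1 in the control, 2429.8 in the exercise and 1511.2 and 2221.8 on the double-labelled arrays. Every high salt array was above every non-salt array, at a log2 difference of 0.66 ± 0.26 (limma adjusted p = 0.518). Serpinh1 read 3159.9, 2923.3 and 3832.0 in high salt ventricles, against 3112.3, 2641.9, 2556.5 and 2505.3 on non-salt arrays, with overlap (0.28 ± 0.26, limma adjusted p = 0.887).

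High salt groups of successive weeks were compared next. In high salt from 3 to 6 weeks 0 of the 13 probe sets passed by limma, where 0.0763% of all tested probe sets did. At an unadjusted p under 0.05 there were 5 of the 13, where 4.62% of all tested probe sets had one. The values at 6 weeks were below those at 3 weeks in 12 of the 13, where 51% of all tested probe sets were lower. There was no overlap in 7, all lower, where 6.12% of all tested probe sets were lower with no overlap. Col1a1 Z78279_g_at, for example, read 1972.7, 1287.4 and 895.4 in high salt at 6 weeks, against 2529.9, 2458.3 and 2505.2 at 3 weeks (-0.90 ± 0.27, limma adjusted p = 0.722).

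In high salt from 6 to 15 weeks 10 of the 13 probe sets fell and 0 rose, where 1.54% of all tested probe sets fell and 1.65% rose. They were the 4 of Col1a1, the 2 of Col3a1 and those of Col1a2, Col5a2, Col15a1 and Serpinh1. Col3a1 X70369_s_at read 329.8, 526.7 and 1209.8 at 15 weeks, against 7349.3, 5196.9 and 3872.2 at 6 weeks, a log2 difference of -3.06 ± 0.32 (limma adjusted p = 9.53e-06). Serpinh1 read 1057.4, 494.6 and 422.3 at 15 weeks, against 3263.7, 2544.6 and 2139.6 at 6 weeks (-2.03 ± 0.28, limma adjusted p = 0.000239). Both were below every array of the earlier week, as were 12 of the 13 probe sets, where 8.45% of all tested probe sets were lower with no overlap. Col5a2 fell by 1.27 (SE 0.31, limma adjusted p = 0.0239), and Col5a1, at -0.89, did not pass (limma adjusted p = 0.347). Neither 6-week nor 15-week controls enter this contrast. Without the high salt array numbered 1 of 6 weeks the count was 6, and Col1a1 M27207mRNA_s_at and Z78279_at, Col5a2 and Col15a1 no longer passed (adjusted p of 0.143, 0.0978, 0.153 and 0.065).

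From 6 to 15 weeks 0 of the 13 probe sets passed in controls by limma, where 0.87% of all tested probe sets did, and 2 had an unadjusted p under 0.05, Col3a1 M21354_s_at (0.60) and Col4a5 (-0.73), where 17% of all tested probe sets had one. With the GAPDH covariate these differences were 0.58 and -0.21, and 0 of the 13 passed. Without the 6-week control numbered 1, whose GAPDH ratio was the lowest of the 3, Col4a5 (-1.09) and Col5a1 (-1.27) fell. Whether the salt difference itself changed from 6 to 15 weeks was tested as an interaction, and 5 of the 13 probe sets passed, all downward, where 0.809% of all tested probe sets fell. The interaction was -3.55 ± 0.46 for Col3a1 X70369_s_at (limma adjusted p = 0.000319) and -2.76 ± 0.39 for M21354_s_at (adjusted p = 0.000765). For Col1a1 it was -2.24 ± 0.39 for Z78279_g_at (limma adjusted p = 0.00434) and -1.77 ± 0.37 for rc_AI231472_s_at (adjusted p = 0.0167), and for Serpinh1 it was -2.01 ± 0.40 (adjusted p = 0.0112). With the GAPDH covariate 8 passed, those 5 among them, at -3.43, -2.73, -2.80, -2.19 and -2.31 in the order above. With a fit of the 4 groups alone 3 passed, and the shares of all tested probe sets in these fits are not given here.

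Ordered by mean log2 intensity over the 8 groups, high salt at 15 weeks was the lowest in 12 of the 13 probe sets. The exception was Col4a3, lowest in exercise at 6 weeks. High salt at 15 weeks lay below the next group at an adjusted p under 0.05 in 7 probe sets, and of the 91 neighbouring pairs in these orders no other pair differed by limma, so the order above the lowest group is not settled. Against Col3a1 X70369_s_at's next lowest group, the 6-week controls, the gap was 2.54 ± 0.32 (limma adjusted p = 2.89e-05). For Serpinh1 the next lowest group was exercise at 6 weeks, at a gap of 1.68 ± 0.28 (limma adjusted p = 0.00124). High salt at 15 weeks was lower than each of the other 7 groups in both Col3a1 probe sets, Col1a1 rc_AI231472_s_at and Z78279_g_at, Col1a2, Col15a1 and Serpinh1. These contrasts share the 15-week salt arrays, and control and exercise at 3 weeks had 1 array each. The same orders were not counted over all tested probe sets, so these counts describe the members alone.

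Probe sets of one gene were compared for agreement. The 2 of Col3a1 had the same sign in all 9 comparisons, and the 4 of Col1a1 in 8 of 9, the exception being controls at 15 against 6 weeks. Sizes differed more than signs, and at 15 weeks against controls X70369_s_at was at -3.04 and M21354_s_at at -2.0 for the same gene. Over the 20 arrays the log2 values of the Col3a1 pair had a Pearson r of 0.92, and r was 0.87 over the 17 arrays without the 15-week salt arrays. M27207mRNA_s_at was the least like the other Col1a1 probe sets, with r of 0.86 to 0.90 over 20 arrays and 0.59 to 0.73 over 17. These arrays share treatment groups and scaling, so r is a description.

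**Figure D4:**
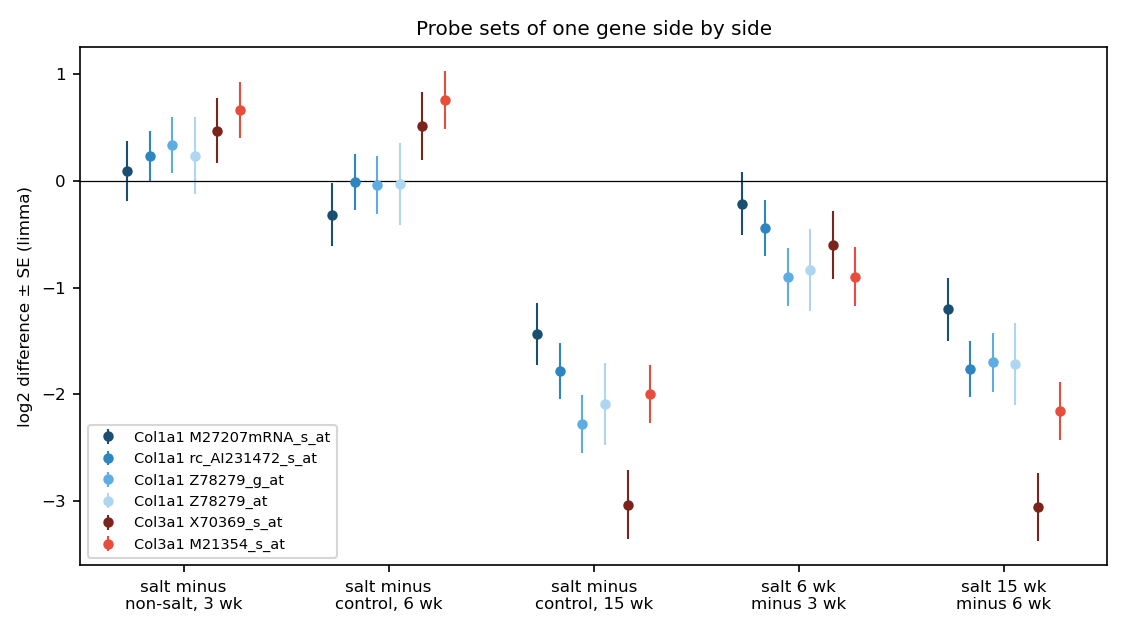
Log2 differences ± SE (limma) of the 4 Col1a1 and 2 Col3a1 probe sets in 5 comparisons along the salt diet. Points of one gene lie on the same side of 0 within each comparison, and X70369_s_at reaches -3.04 and -3.06 in the comparisons that hold high salt at 15 weeks, where M21354_s_at reaches -2.0 and -2.16.

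Serpinh1 tracked the fibrillar chains to different degrees. Its r with Col1a1 rc_AI231472_s_at was 0.85 over 20 arrays and 0.83 over the 17 without high salt at 15 weeks, the highest of the 4 Col1a1 probe sets, while with M27207mRNA_s_at it was 0.71 and 0.37. With Col1a2 it was 0.81 and 0.64, with Col3a1 X70369_s_at 0.81 and 0.50, and with Col5a1 0.62 and 0.39. With Col15a1 it was 0.80 over 20 arrays and 0.21 over 17, and with Col4a3 -0.08 and -0.09. Leaving out the 13 member probe sets, the transcripts most like Serpinh1 over the 20 arrays were Dbn1 (r 0.92, and 0.53 over 17 arrays), Myadm (0.91 and 0.73), Pls3 (0.90 and 0.73), Vtn (0.88 and 0.02) and Tpm4 (0.88 and 0.71). Most like Col3a1 X70369_s_at among probe sets other than the members were Nmrk2 (0.91 and 0.53), 2 probe sets of the cell cycle gene Ccnd1 (0.89 and 0.87, then 0.59 and 0.39), Cald1 (0.87 and 0.63) and Fstl1 (0.86 and 0.21), whereas Col1a1 rc_AI231472_s_at and Col1a2 reached 0.90 and 0.89 with it over the 20 arrays. Ccnd1 D14014_at, for instance, averaged 215.6 ± 93.9 in high salt ventricles at 15 weeks and 1087.5 ± 255.6 in controls (SD, n = 3 each).

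Genes of collagen modification and cross-linking were read at 15 weeks from a list of 23, of which 11 could be tested. Of these 2 fell and 0 rose, with a median log2 difference of -0.33, where 3.92% of all tested probe sets fell and 3.28% rose. Loxl1, a cross-linking oxidase best known for elastin, averaged 695.7 ± 211.3 in high salt ventricles and 2155.1 ± 688.2 in controls (-1.58 ± 0.37, limma adjusted p = 0.0132). Pcolce, which speeds the removal of the procollagen C-propeptide, averaged 134.0 ± 75.1 in high salt ventricles and 366.5 ± 25.03 in controls (-1.33 ± 0.37, adjusted p = 0.0294). With the GAPDH covariate 1 of the 11 passed and the median was -0.08. The prolyl hydroxylase subunits P4ha1 (-0.73, adjusted p = 0.0617) and P4hb (-0.07, adjusted p = 0.904) and the oxidase Lox (0.06, adjusted p = 0.959) did not pass.

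Other chaperones of the endoplasmic reticulum were tested beside Serpinh1. Of 9, 3 fell and 0 rose at 15 weeks, with a median of -0.59, where 3.92% of all tested probe sets fell and 3.28% rose. Hyou1 averaged 523.4 ± 134.3 in high salt ventricles and 1645.6 ± 115.8 in controls (-1.61 ± 0.23, limma adjusted p = 0.000219), and Hspa5, the luminal Hsp70 also called BiP, averaged 1120.1 ± 221.8 in high salt ventricles and 2396.6 ± 343.3 in controls (-1.08 ± 0.21, adjusted p = 0.00254). Pdia3, a disulfide isomerase, fell by 0.99 (adjusted p = 0.0209), while Hsp90b1 was at 0.21 (adjusted p = 0.564). In high salt from 6 to 15 weeks 4 of the 9 fell, Hspa5, Hyou1, Pdia3 and Pdia4, where 1.54% of all tested probe sets fell. Of 10 heat shock genes of other compartments 0 passed by limma at 15 weeks and 3 had an unadjusted p under 0.05, where 19.6% of all tested probe sets had one, with a median of -0.38.

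The matrix around the fibrils changed in part at 15 weeks, when 3.92% of all tested probe sets fell and 3.28% rose. Of 15 tested partners of collagen 2 fell at 15 weeks and 0 rose, Lum (-1.22 ± 0.30, limma adjusted p = 0.0171), a proteoglycan that spaces fibrils, and Fbln5 (-1.10 ± 0.24, adjusted p = 0.00741), an elastic fiber protein. At an unadjusted p under 0.05 there were 5 of the 15, these and Lamb2 (-0.64), Eln (-0.65) and Dcn (-0.50), all lower. Of all tested probe sets 19.6% had such a p. Fn1 (0.12) and Postn (0.50) did not pass. None of the 4 other tested collagens, Col8a1, Col10a1, Col12a1 and Col26a1, did by limma, 0 of them at an unadjusted p under 0.05. Among 11 genes of collagen breakdown Ctsl, a lysosomal protease, rose by 0.83 (adjusted p = 0.0219) and 0 fell, with Mmp2 at -0.51 and Timp1 at 0.52, neither passing. Of 5 collagen receptors Itgb1, the shared beta chain of collagen-binding integrins, rose (1.13 ± 0.27, adjusted p = 0.0142).

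Signals known to drive fibrosis moved in both directions at 15 weeks, with 2 of 25 up and 3 down. Among all tested probe sets 3.28% rose and 3.92% fell. Spp1, the secreted matrix protein osteopontin, averaged 803.6 ± 466.6 in high salt ventricles and 64.1 ± 11.7 in controls (2.85 ± 0.44, limma adjusted p = 0.000428), and the transcription factor gene Cebpb rose by 1.64 (adjusted p = 0.000604). Tgfb1, a main inducer of collagen genes, averaged 240.2 ± 86.2 in high salt ventricles and 579.7 ± 99.2 in controls (-1.18 ± 0.24, limma adjusted p = 0.00364). Tgfb3 fell by 1.16 (adjusted p = 0.00311), and Pdgfa, named after its value was seen, fell by 1.64 (adjusted p = 0.0095).

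**Figure D5:**
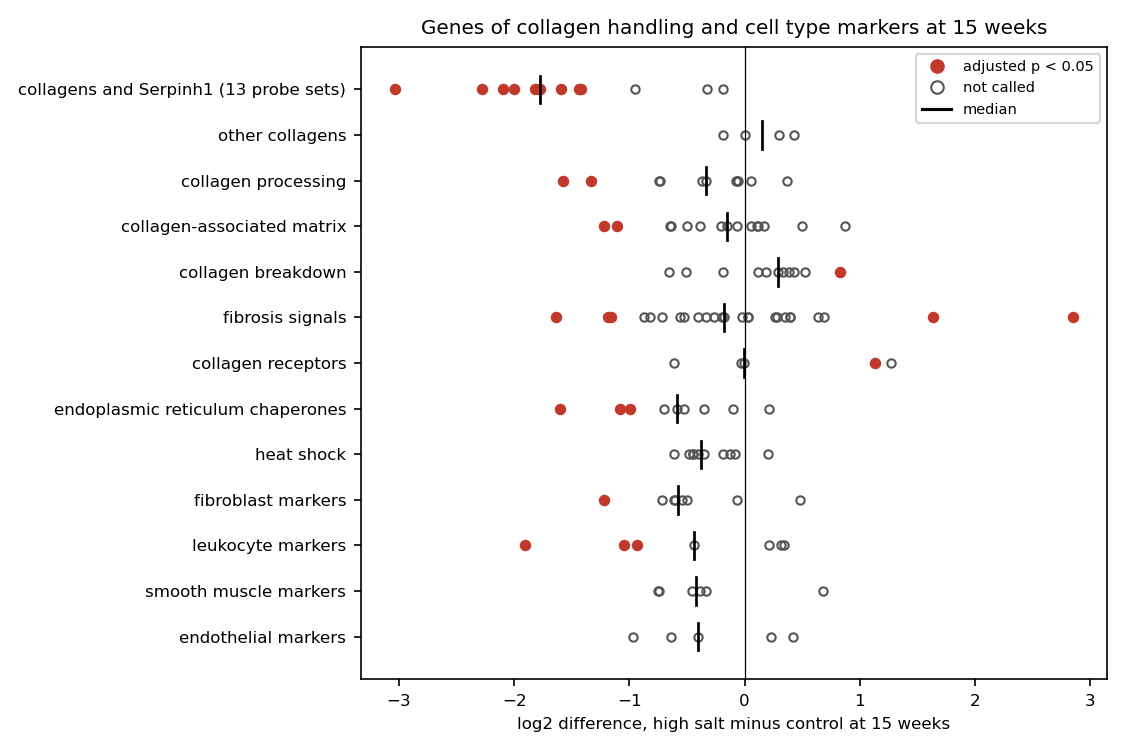
Log2 differences at 15 weeks, high salt minus control, by gene list, 1 point per gene (per probe set in the top row); filled points passed limma's test at an adjusted p under 0.05 and bars are medians. The top row has its median at -1.77, the endoplasmic reticulum chaperones at -0.59 and the other lists drawn between -0.58 and 0.29.

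Markers of cell types were read at 15 weeks as well. Of all tested probe sets 3.92% fell, 3.28% rose and 19.6% had an unadjusted p under 0.05 there. Among 8 fibroblast markers on the array 1 fell, Lum, and 0 rose, with a median of -0.58 against -0.04 over all tested probe sets. At an unadjusted p under 0.05 there were 4, Lum, Pdgfra (-0.72), Dcn (-0.50) and Tcf21 (-0.61), all lower in high salt. Their summed intensity ranged from 11525.5 to 20266.7 in high salt ventricles and from 17000.4 to 23518.5 in controls, with overlap, and Dcn, at a mean of 13803 over the 20 arrays, makes up most of it. Of 5 endothelial and 6 smooth muscle markers 0 passed by limma and 2 of each list had an unadjusted p under 0.05, and the medians were -0.40 and -0.42. Of 7 tested leukocyte markers 3 fell, RT1-Da (-1.90), RT1-Bb (-1.04) and Cd74 (-0.93), all of antigen presentation. The other 4, Ptprc (-0.44), Cd14 (0.21), Cd4 (0.31) and Lyz2 (0.34), did not pass. The summed intensity of 10 annotated ones was 4164.2 to 4966 in high salt ventricles and 7107.5 to 7942 in controls, mostly from the called Cd74 and RT1-Da with means of 3447 and 2505 over the 20 arrays. Of 3 red blood cell markers 2 rose, Slc4a1 (1.94) and Alas2 (2.16), with sums of 31915.8 to 39001.7 in high salt ventricles and 18166.3 to 24498.5 in controls. Of 10 tested ventricular muscle markers 0 passed by limma and 2 had an unadjusted p under 0.05, a share near the 19.6% of all tested probe sets, and their sums of 225952 to 320902 in high salt ventricles and 254526 to 311873 in controls overlapped. No marker of these lists was at 0 in either group. This does not show detection, since Itgam, at a mean of 23.9, was too dim to pass the filter. The part of cell makeup in the collagen differences was not tested.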

How the data were processed

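Left ventricular RNA was measured on an Affymetrix rat array, and the authors deposited a table of linear intensities, 24 columns by probe set, and the sources used here give neither their software nor their summary method. Means of the deposited intensities after trimming 2% lay between 500.767 and 501.021 per column, so they were already scaled and were used as they stood. Precision is limited by the number of arrays. Of the columns, 4 held 2 arrays that each appear as control and as exercise at 3 weeks; they were left out of all comparisons but that of 3 weeks, where they had a group mean of their own with equal weight per array in the non-salt mean. Thus 20 arrays in 8 groups entered the fit, a departure from the planned 24 columns.

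Control probe sets (59) were dropped, and probe sets whose mean over the 20 arrays lay under the 25th percentile were not tested, leaving 6555. Values were transformed as log2(intensity + 40), which understates changes of dim genes, as do the fold changes. Means per group were fitted with limma 3.58.1 in R 4.3.3 with an intensity trend, and p-values were adjusted by Benjamini-Hochberg over all 6555; the scripts recovered known changes in simulated data. Groups of 1 array borrow their spread from the rest. Genes of lists were read at their brightest tested probe set, up to 4 called members with the smallest p were named per list, and likeness was Pearson r on the log2 scale, for the 5 highest probe sets that are no members. The annotation gave 1 symbol for 7018 probe sets and several for 308, and 1473 are unnamed here. The members, lists and naming rule were chosen with earlier results of these data known. Alternatives were other pseudocounts, filters, scalings, readings of the shared arrays, covariates, weights, subsets and single arrays left out.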

Additional observations from a re-analysis of the deposited data

Results flagged for a closer look

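In 5 probe sets the salt difference at 15 weeks departed from that at 6 weeks by limma's interaction test, with log2 values of -3.55 (Col3a1 X70369_s_at), -2.76 (Col3a1 M21354_s_at), -2.24 (Col1a1 Z78279_g_at), -1.77 (Col1a1 rc_AI231472_s_at) and -2.01 (Serpinh1). The 6-week controls in this test had GAPDH 3' to 5' ratios of 1.58 to 3.99, and the part of RNA breakdown was not tested apart from the covariate fit, in which 8 member probe sets passed.

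For Col1a1 M27207mRNA_s_at 1 of the 4 non-salt arrays of 3 weeks, double-labelled array 2, read 4445.8, against 7036.8 to 7472.8 on the other 3. Its gap to the nearest array was 0.856 of the group's range. Such a gap arises by chance in about 1 in 20 groups, and all 13 member probe sets were searched. That array was also the lowest of the 4 for the other Col1a1 probe sets, Col1a2, Col3a1, Col5a1 and Col15a1. It was not the lowest for Col4a3, Col4a5, Col5a2 or Serpinh1.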

How the results depend on the processing

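At 15 weeks 9 to 11 of the 13 probe sets fell under every alternative run (9 to 10 with single arrays left out), except 5 with the controls numbered 2 and 3 left out, an alternative added after the data were seen. High salt against exercise at 6 weeks, high salt against non-salt at 3 weeks and high salt at 6 against 3 weeks kept 0 calls throughout. High salt against control at 6 weeks had 0 calls, but 2 with the double-labelled arrays as controls, 1 with them as exercise, 2 with all 24 columns, 1 with a pseudocount of 100, 1 with a filter at the median, 3 with array weights and 0 to 2 with single arrays left out. For exercise at 6 weeks the 1 call became 0 with the GAPDH covariate (Col5a1 at 0.66), 0 with the groups compared alone, 0 with controls of 3 and 15 weeks, 3 with array weights and 0 to 1 with single arrays left out. The 10 falls in high salt from 6 to 15 weeks became 6 with those groups alone and 6 to 10 with single arrays left out. In controls over time 0 became 2 with array weights and 0 to 2 with single arrays left out. The interaction count of 5 became 8 with the GAPDH covariate, 3 with its groups alone, 10 with array weights and 4 to 6 with single arrays left out. Over all tested probe sets the calls at 15 weeks numbered 472, 218 without the control numbered 2, 57 without the controls numbered 2 and 3 and 1038 with array weights. Those for high salt at 6 weeks numbered 942, and 15 with the GAPDH covariate, and those for exercise 513, and 0 with it. The causes were not tested, beyond the smaller number of arrays where groups or arrays were dropped. In none of the 9 pairs of groups checked did all same-numbered arrays correlate above 0.1, so the main fit held no replicate block. With so few arrays per group this rule cannot exclude a pairing by replicate number. With the replicate block 10 probe sets fell at 15 weeks and no member count changed. Of single probe set values 2186 kept their side of the threshold, 34 lost the call, 45 gained it and 1 reversed.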
